A study of Codonopsis pilosula with 12 samples.

Results

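Glutathione S-transferases (GSTs) were examined in the leaf transcriptome of Codonopsis pilosula, a medicinal plant of the bellflower family. Members were all assembled genes whose annotation or SwissProt description names glutathione S-transferase or glutathione transferase. Of 55,270 genes, 66 matched. Of these, 7 were left out because their best SwissProt hit came from a species that is not a land plant, 5 of them human, which left 59 members. The groups were DG1 and CG1 of cultivar G1 (Gandang No. 1), and DW1 and CW1 of cultivar W1 (Weidang No. 1), with 3 libraries each. DG1 and DW1 were leaves of soil-grown seedlings on day 4 without water. CG1 and CW1 were leaves taken on day 0, before water was withheld. All 4 groups were unmodified plants, grown in pots outdoors under a shelter against rain. Water was withheld from 4 weeks after emergence, so DG1 and DW1 were 4 days older than CG1 and CW1.

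Watered plants of day 4 were not among these libraries, so a drought effect and a difference between days cannot be told apart. The treatment label of CW1 replicate 1 reads drought, whereas its title and the paper place it with the controls. The labels describe each sample as a mix of 2 pots and the paper as 1 pot per replicate, so the plants behind a library are not clear and p-values measure only the spread between libraries. Total expected counts per library ran from 12,415,229 to 22,837,632. DG1 replicate 1 stood apart and is given separately throughout. The small subunit of rubisco had 6644 TPM (a read share corrected for gene length) there, against 27,527 to 67,612 TPM in the other 11 libraries. Chlorophyll a-b binding proteins (29 genes) summed to 7724 TPM there, against 41,955 to 87,746 TPM elsewhere. For the 3763 genes with a vertebrate best hit, the sum was 70,235 TPM in DG1 replicate 1, against 16,167 to 22,687 TPM in the other libraries. Of the root lists, genes for root meristem growth factor and RHD6 were not found, and 1 root hair specific gene had 0 to 2.67 TPM. The 7 Casparian strip genes summed to 0 to 88.1 TPM, the highest in CG1 replicate 1, and 2 expansin-A7 genes to 28.1 to 118 TPM. Of the epidermal lists, 5 SPCH, MUTE and FAMA genes summed to 0.59 to 15.7 TPM. The 8 EPF genes (stomatal patterning peptides) summed to 19.6 to 34.1 TPM in DG1, against 92.6 to 113 TPM in CG1. In W1 they summed to 32.8 to 55.0 TPM in DW1, against 59.5 to 115 TPM in CW1. The part of these marker genes in the GST values was not tested.

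GSTs join the tripeptide glutathione to electrophilic compounds, which are then moved into the vacuole. Tau (GSTU) and phi (GSTF) are the large plant classes, known for detoxifying herbicides and for induction by stress. The zeta class isomerises maleylacetoacetate in the breakdown of tyrosine. DHAR enzymes recycle dehydroascorbate to ascorbate, lambda enzymes act as thiol transferases, theta enzymes can reduce organic hydroperoxides, and microsomal GSTs are unrelated membrane proteins of the MAPEG family. TCHQD is a small class named after tetrachlorohydroquinone dehalogenase.

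By the best SwissProt hit, or the annotation where the hit gave no class, 18 members were tau, 3 phi, 2 zeta, 2 DHAR, 1 lambda, 1 TCHQD, 3 theta T1 and 3 microsomal. Class letters stood in the hit or annotation of 9 tau and 2 phi members, and the other 9 tau members were assigned by gene name (parA, parC, HSP26-A, PRP1 or maize GST 23) and 1 phi member by the name PARB. A further 10 were annotated "T3-like" and 16 carried no class. The annotation was borne out for most of them: 45 members had a GST domain listed and the 3 microsomal members a MAPEG domain. The T3-like genes went against their name. None of the 10 had a SwissProt hit, 9 had no domain listed and the remaining one had a NAM-associated domain, so they are called T3-like here only by annotation. Of the 16 members without a class, 12 had a tobacco "probable glutathione S-transferase" and 2 a Hyoscyamus muticus GST as best hit. In the eggNOG database, 13 of these 16 and 17 of the 18 tau members were placed in one orthologous group, together with the lambda member.

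Member lengths ran from 208 to 3848 bp (median 854 bp, against 448 bp over all genes), and 12 members were shorter than 500 bp. Trinity placed 29 of them in 11 clusters that held more than 1 member. Reads of near-identical members can be shared between them, so values of members of one cluster are uncertain individually. Of the tau members, 3 were among the genes the study chose for qRT-PCR, and their primers show which transcripts were targeted. The sequences below come from the study's primer list.
PRP1 (DN20437_c0_g2) forward: gaagattcctgtgttggtgca
PRP1 (DN20437_c0_g2) reverse: tcgggtaagattgaaggccc
HSP26-A (DN13914_c0_g2) forward: aagacaaggccatgggagaa
HSP26-A (DN13914_c0_g2) reverse: ctctaatccacccgcctctt
GSTU17 (DN17746_c2_g5) forward: ttagcttgggtgagggtagc
GSTU17 (DN17746_c2_g5) reverse: agccctgatcactgctttct

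Together the members made up more of the transcriptome in droughted G1. Their TPM summed to 6077 in DG1 replicate 1 and to 3891 and 3848 in DG1 replicates 2 and 3, against 2078, 2375 and 2016 in CG1. In W1 the sums were 2852, 2811 and 2938 TPM in DW1, against 2525, 1808 and 2244 TPM in CW1. The groups did not overlap in either cultivar. The mean of DG1 was 2.14 times that of CG1, or 1.79 times without DG1 replicate 1, and the mean of DW1 was 1.31 times that of CW1. These sums are descriptions, with no test. In bulk leaf RNA, a change in the number of cells of a type and a change in RNA per cell cannot be told apart.

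The tau class and the members without a class carried most of the difference. Tau members summed to 1868 TPM in DG1 replicate 1 and to 852 and 840 TPM in the other DG1 libraries, against 337, 297 and 233 TPM in CG1. They made up 21.8 to 30.7% of all GST TPM in DG1, against 11.6 to 16.2% in CG1. In W1 the tau sums were 727, 507 and 672 TPM in DW1, against 409, 244 and 382 TPM in CW1. Members without a class summed to 2656, 1545 and 1563 TPM in DG1, against 751, 965 and 856 TPM in CG1. Zeta members summed to 385, 390 and 374 TPM in DG1 and to 203, 157 and 157 TPM in CG1, so that DG1 replicate 1 lay with the other droughted libraries for this class. The 3 theta T1 members stayed in one range, with 50.9 to 61.2 TPM in DG1 and 41.7 to 66.4 TPM in CG1. Levels were concentrated in few genes: the 10 most abundant members held 58.6% of the mean summed TPM, and 15 members averaged under 5 TPM.

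**Figure D1:**
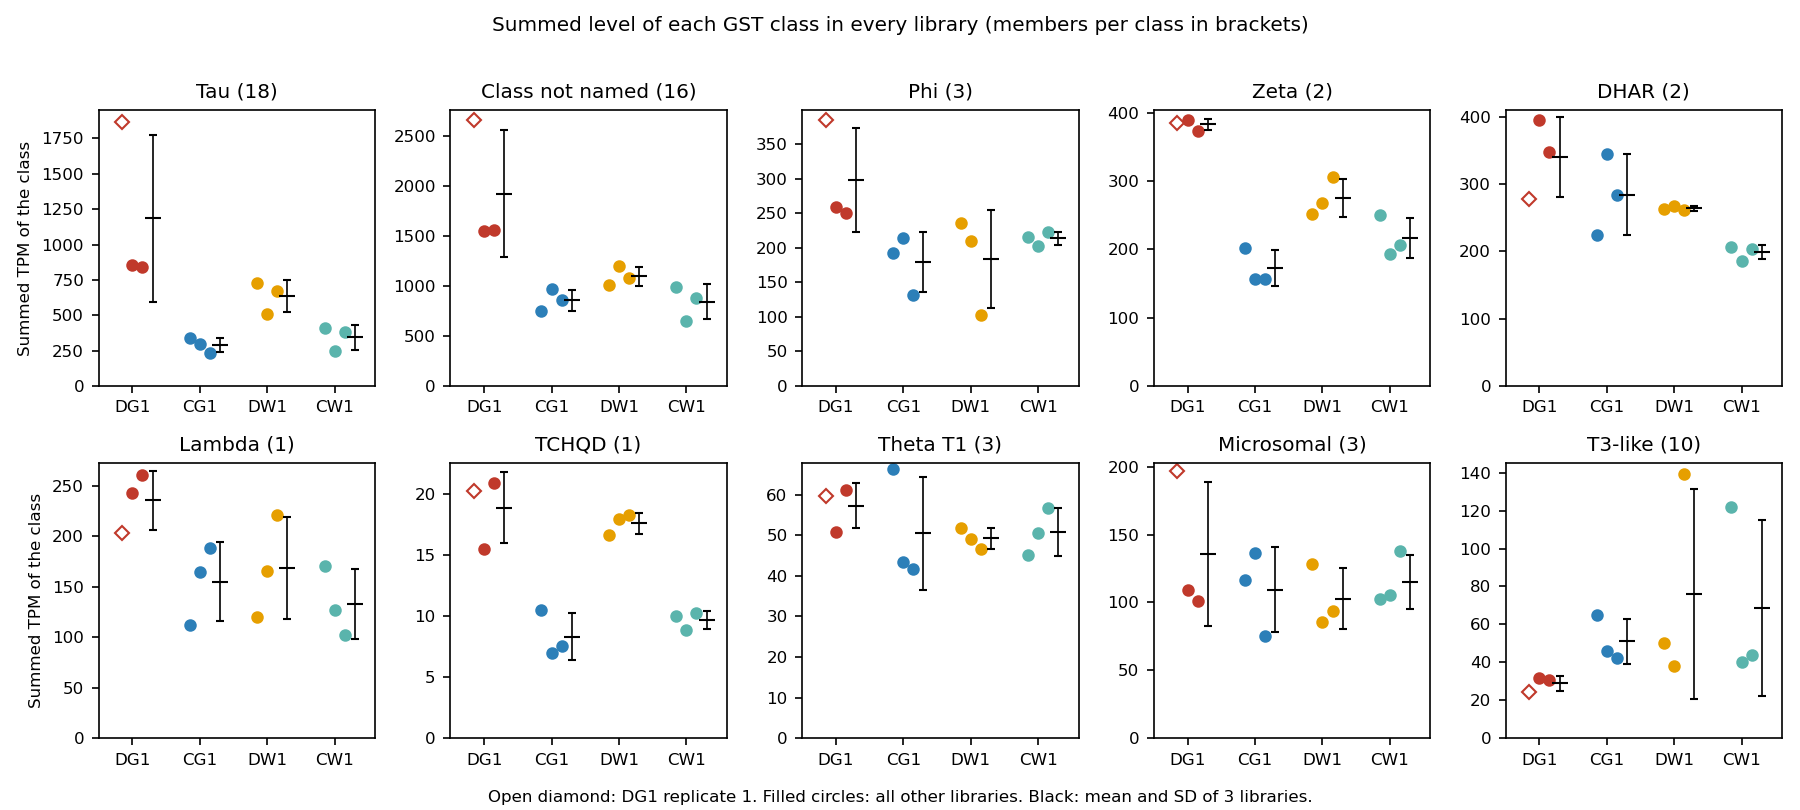
Summed TPM of each GST class (y axis, from 0) in the 3 libraries of DG1, CG1, DW1 and CW1, with DG1 replicate 1 as an open diamond and the mean and SD in black. Tau members summed to 1868, 852 and 840 TPM in DG1, above the 233 to 337 TPM in CG1, whereas theta T1 members overlapped between all groups.

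The comparison of DG1 with CG1 asked which members responded to drought in G1. Expected counts of all 12 libraries were fitted in 1 edgeR model, and a member is said to rise or fall where the Benjamini-Hochberg adjusted p of the quasi-likelihood test, over 29,168 genes, was under 0.05. Of the 59 members, 57 passed the filter on low counts and 2 (DN18340_c0_g7 and DN17363_c0_g5) did not. In G1, 22 of 59 members (37.3%) rose and 2 (3.39%) fell. The 22 include DN13878_c0_g5, which passed the filter through droughted libraries only and so had to differ. In the other 21, all 3 DG1 libraries lay above all 3 CG1 libraries in TPM. Over all genes tested, 11.5% rose and 12.3% fell. The median log2 fold change of the tested members was 1.05, and that of all genes tested was 0.01. The members that rose were 7 tau (5 of them assigned by gene name), 10 without a class, 2 zeta, 1 phi, 1 DHAR and 1 TCHQD. Those that fell were 1 phi and 1 T3-like member.

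Without DG1 replicate 1, 13 members rose in G1, all of them among the 22, and 1 fell, while 6.72% of all genes tested then rose and 8.29% fell. Without CG1 replicate 3, 11 of the 22 rose and 0 fell, against 5.02% and 7.46% of all genes tested. In TPM, all 3 DG1 libraries lay above all 3 CG1 libraries in 26 of 59 members, against 16.4% of the genes tested, and below them in 4 members, against 19.0%. With only DG1 replicates 2 and 3, the count above CG1 was again 26 of 59, against 21.5% of the genes tested.

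Among the tau class, the most abundant member was GSTU17 (DN13342_c0_g1). In Arabidopsis, plants that lack GSTU17 tolerate drought better. This gene had 568 TPM in DG1 replicate 1 and 431 and 398 TPM in DG1 replicates 2 and 3, against 60.6, 62.6 and 69.5 TPM in CG1. All 3 DG1 libraries lay far above CG1, also without replicate 1. Its log2 fold change was 2.79 ± 0.34 (SE, adjusted p = 0.00116), and 2.66 ± 0.35 without DG1 replicate 1 (adjusted p = 0.00332). In W1 it had 137, 197 and 282 TPM in DW1, against 112, 73.4 and 89.8 TPM in CW1. These groups did not overlap either, but the W1 value of 1.23 ± 0.32 did not pass the test (adjusted p = 0.0753).

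PRP1 (DN20437_c0_g2), whose potato counterpart is induced by pathogens, had 135 TPM in DG1 replicate 1 and 76.2 and 99.6 TPM in the other DG1 libraries, against 7.41, 7.44 and 13.5 TPM in CG1. Its log2 fold change in G1 was 3.38 ± 0.64 (adjusted p = 0.00544). This assembled gene is only 208 bp long, and only 1 of the CG1 libraries passed the minimum count. In W1 its values of 83.2, 20.8 and 35.9 TPM in DW1 overlapped with 23.4, 5.29 and 15.5 TPM in CW1.

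A second GSTU17 hit, DN17746_c2_g5, was the qRT-PCR target named GSTU17 and was far less abundant. It had 45.4, 9.04 and 15.1 TPM in DG1, against 5.07, 4.85 and 2.74 TPM in CG1 (log2 fold change 2.52 ± 0.62, adjusted p = 0.016). DG1 replicate 1 was 3.76 times the mean of the other DG1 libraries, and without it the adjusted p was 0.0593. The third primer target, HSP26-A (DN13914_c0_g2), has as its best hit a soybean gene first described as a heat shock transcript. It had 20.3, 6.23 and 4.33 TPM in DG1, against 6.47, 0.91 and 0.92 TPM in CG1. These groups overlapped, and its log2 fold change of 2.27 ± 0.93 did not pass the test (adjusted p = 0.101). DESeq2, the method the study used, called it as higher at an adjusted p under 0.05, as did edgeR without CG1 replicate 1. No fold minimum was set for these calls, whereas the study also required one.

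The other HSP26-A hit, DN15259_c0_g1, was more abundant. It had 406 TPM in DG1 replicate 1 but 71.8 and 95.3 TPM in DG1 replicates 2 and 3, against 23.7, 48.9 and 51.0 TPM in CG1. It rose in G1 (2.13 ± 0.64, adjusted p = 0.0363), and without DG1 replicate 1 its value was 0.97 ± 0.46 (adjusted p = 0.183), so the size of its change depended on that library. In W1 it had 83.9, 106 and 101 TPM in DW1, against 49.9, 19.4 and 40.0 TPM in CW1. These groups did not overlap, but the W1 change did not pass the test.

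Other tau members rose in G1 with and without DG1 replicate 1. DN20749_c0_g2, annotated parC after a tobacco gene regulated by auxin, had 51.4, 24.6 and 26.6 TPM in DG1, against 13.9, 4.08 and 2.40 TPM in CG1 (2.45 ± 0.53, adjusted p = 0.00934). DN21598_c1_g5, with a maize GST 23 hit, had 164, 48.4 and 70.9 TPM in DG1, against 29.0, 15.6 and 10.5 TPM in CG1 (2.41 ± 0.56, adjusted p = 0.0126). The last called tau member, DN13878_c0_g5, also hits GST 23 and rests on few libraries. Its expected counts were 413, 62 and 2 in DG1, against 3, 0 and 0 in CG1, so the groups overlapped. Per library total, the summed counts of DG1 were 172 times those of CG1, with an exact interval from 58.5 to 838 at 95% that covers counting error only. It passed the filter on low counts through 2 DG1 libraries and 1 DW1 library and none of the controls, so that a gene kept in this way had to differ. Its call (adjusted p = 0.0368, and 0.13 without DG1 replicate 1) is included in the count of members that rose but is no evidence of a rise.

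Not all tau members were higher in drought. DN16234_c0_g6 (a GST 23 hit) had 34.9, 52.0 and 27.0 TPM in DG1, against 71.0, 72.3 and 41.2 TPM in CG1, and GSTU8 DN15930_c1_g6 had 23.1, 32.6 and 19.3 TPM in DG1, against 52.1, 41.9 and 29.6 TPM in CG1. Neither passed the test. The tobacco auxin-regulated PARA hit DN15726_c0_g6 had 74.7, 10.1 and 5.67 TPM in DG1, against 3.50, 0.26 and 0.14 TPM in CG1. Here the groups did not overlap, but the spread within each was wide and the value of 4.60 ± 1.77 did not pass (adjusted p = 0.0823). GSTU8 DN15930_c1_g3 had 206, 69.1 and 57.0 TPM in DG1, against 48.6, 26.6 and 4.48 TPM in CG1 (2.12 ± 0.82, adjusted p = 0.0841). DESeq2 called both DN15726_c0_g6 and DN15930_c1_g3 as higher.

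**Figure D2:**
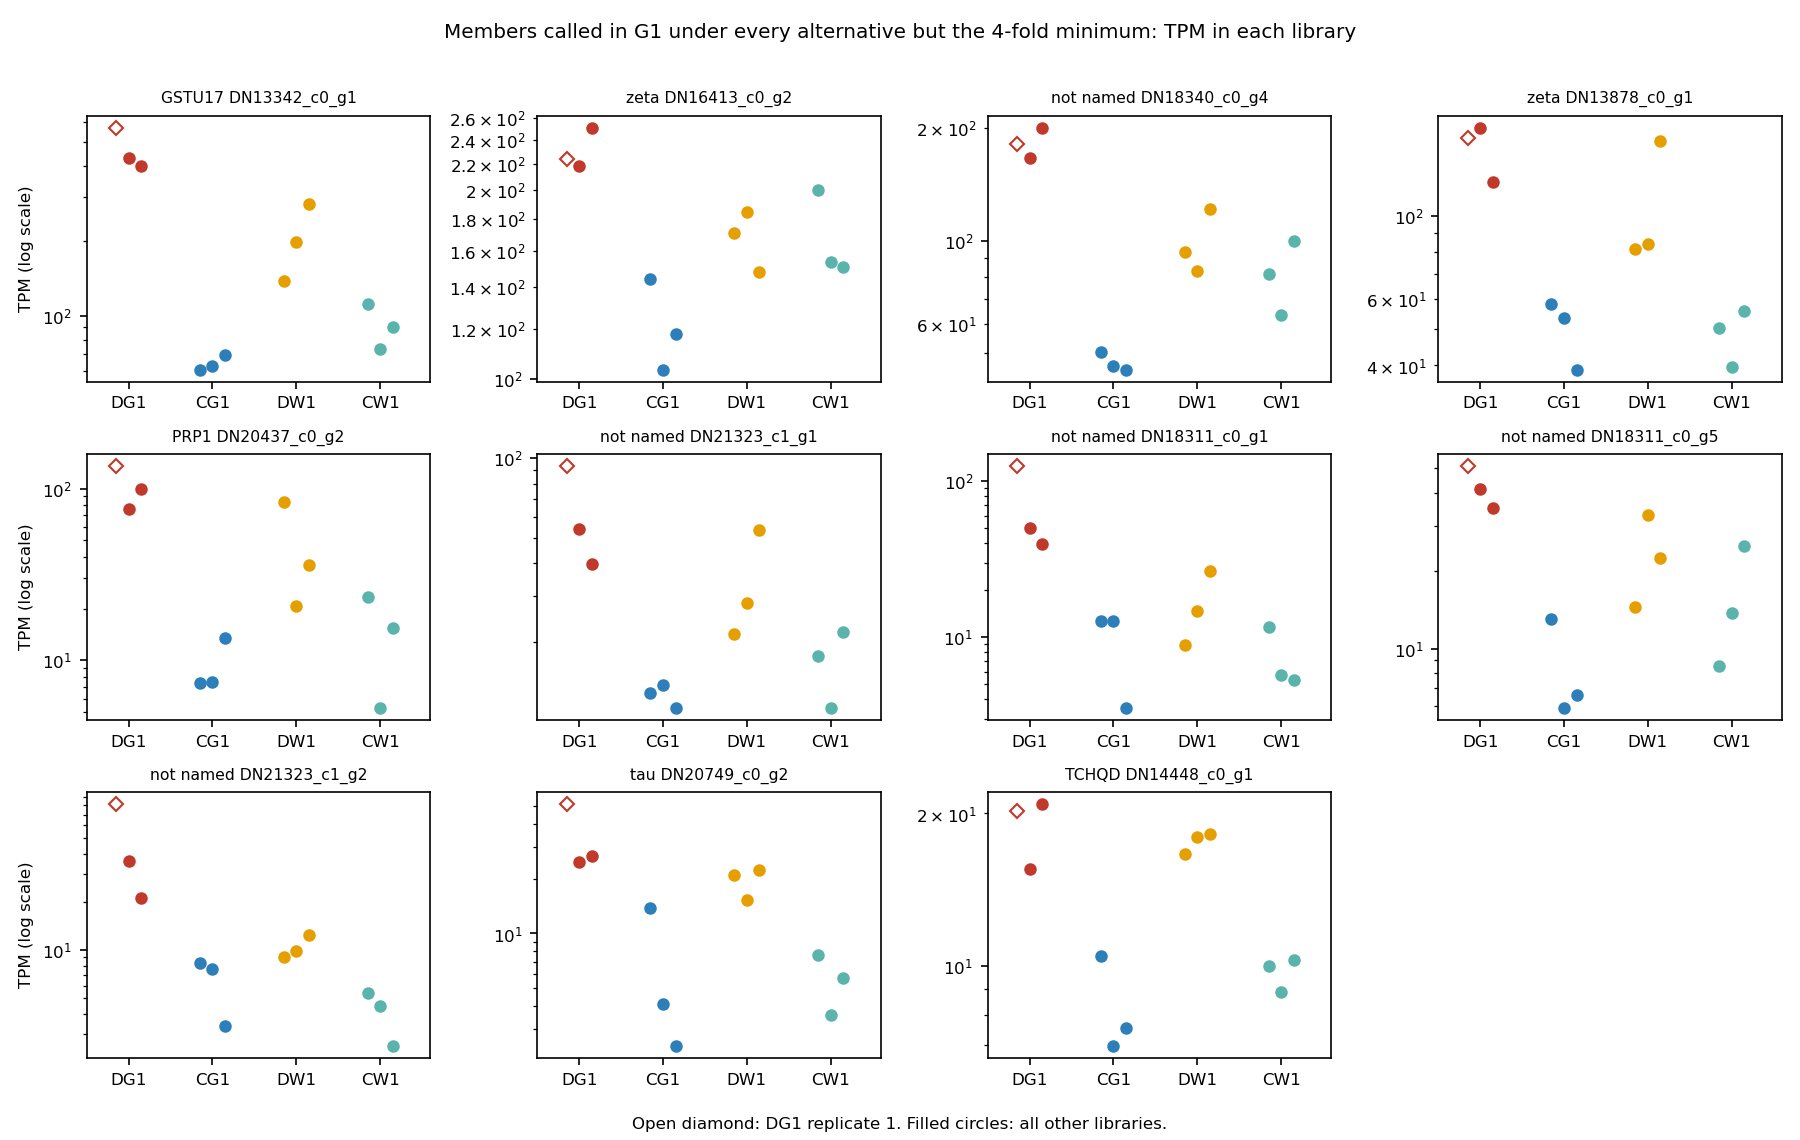
TPM (log axis) in each library for the 11 members that were called in G1 in the main comparison and under every alternative tried except the 4-fold minimum, with DG1 replicate 1 as an open diamond. GSTU17 (DN13342_c0_g1) lay between 398 and 568 TPM in DG1 and between 60.6 and 69.5 TPM in CG1.

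Of the 16 members without a class, 10 rose in G1 and 0 fell. DN13274_c1_g1, the member with the highest mean over the 12 libraries, though not within CG1 or CW1, had 720, 353 and 462 TPM in DG1, against 124, 217 and 178 TPM in CG1. It rose (1.50 ± 0.43, adjusted p = 0.0285), but without DG1 replicate 1 the value was 1.18 ± 0.43 (adjusted p = 0.0915). DN18340_c0_g4 was tighter, with 182, 167 and 200 TPM in DG1, against 50.5, 46.2 and 45.2 TPM in CG1. Its change of 1.76 ± 0.27 (adjusted p = 0.0024) remained at 1.68 ± 0.29 without DG1 replicate 1 (adjusted p = 0.00767).

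The 4 members of cluster DN21323_c1 all rose in G1. DN21323_c1_g5 had 468, 318 and 271 TPM in DG1, against 226, 125 and 118 TPM in CG1, and DN21323_c1_g3 had 345, 173 and 163 TPM in DG1, against 90.9, 106 and 125 TPM in CG1. Their changes were 1.07 ± 0.27 and 1.05 ± 0.30. The less abundant DN21323_c1_g1 and DN21323_c1_g2 changed more, by 2.85 ± 0.58 and 2.83 ± 0.53 (adjusted p = 0.00744 and 0.00499). DN21323_c1_g2 had 81.2, 35.7 and 21.1 TPM in DG1, against 8.29, 7.64 and 3.34 TPM in CG1. The members of another cluster did not share a call: DN18340_c0_g4 rose, whereas DN18340_c0_g1 had 19.4, 25.3 and 13.9 TPM in DG1, against 29.9, 44.8 and 15.9 TPM in CG1, and did not pass the test.

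Both members of cluster DN18311_c0 rose as well. DN18311_c0_g1 had 125, 50.2 and 39.7 TPM in DG1, against 12.7, 12.6 and 3.52 TPM in CG1 (2.90 ± 0.66, adjusted p = 0.011). DN18311_c0_g5 had 51.1, 41.5 and 35.2 TPM in DG1, against 13.0, 5.88 and 6.58 TPM in CG1 (2.39 ± 0.45, adjusted p = 0.00519). The remaining members of this group that rose were DN13878_c0_g7 (2.00 ± 0.61) and DN15930_c1_g1 (1.81 ± 0.51), with adjusted p of 0.0381 and 0.0282. DN17852_c2_g2, with a Hyoscyamus hit, had 326, 121 and 105 TPM in DG1 and 89.3, 273 and 184 TPM in CG1, so that DG1 replicate 1 lay above CG1 and the other DG1 libraries within it.

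The 3 phi members did not move together. PARB (DN17852_c2_g1), the counterpart of a tobacco GST regulated by auxin, had 233 TPM in DG1 replicate 1 and 190 and 196 TPM in the other DG1 libraries, against 78.7, 99.3 and 61.1 TPM in CG1. It rose in G1 (1.36 ± 0.34, adjusted p = 0.0173). GSTF10 (DN14187_c0_g1), known in Arabidopsis as the dehydration-responsive gene ERD13, fell in G1, with 8.53, 30.8 and 18.5 TPM in DG1, against 47.2, 53.6 and 47.1 TPM in CG1 (-1.34 ± 0.38, adjusted p = 0.028). In W1 it had 27.0, 27.7 and 28.9 TPM in DW1, against 53.2, 38.9 and 35.0 TPM in CW1, which did not overlap, but the value of -0.49 ± 0.37 did not pass the test (adjusted p = 0.48). GSTF11 (DN18410_c0_g7), an Arabidopsis gene of glucosinolate synthesis, ranged from 35.0 to 144 TPM in DG1, 22.7 to 66.3 TPM in CG1, 4.12 to 147 TPM in DW1 and 66.7 to 111 TPM in CW1, and passed no test.

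Of the smaller classes, both zeta members rose in G1. DN16413_c0_g2 had 224, 219 and 251 TPM in DG1, against 144, 103 and 118 TPM in CG1 (0.96 ± 0.15, adjusted p = 0.00236). In W1 its levels were 170, 184 and 148 TPM in DW1 and 200, 153 and 151 TPM in CW1, which overlapped. DN13878_c0_g1 had 161, 172 and 123 TPM in DG1, against 58.2, 53.4 and 39.0 TPM in CG1 (1.61 ± 0.31, adjusted p = 0.00545), and 81.9, 84.0 and 159 TPM in DW1, against 50.3, 39.6 and 55.9 TPM in CW1 (1.2 ± 0.3, adjusted p = 0.0715). DG1 replicate 1 was 0.95 and 1.1 times the mean of the other DG1 libraries for these genes.

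TCHQD (DN14448_c0_g1) was the one member called in both cultivars. It had 20.3, 15.5 and 20.9 TPM in DG1, against 10.5, 6.95 and 7.54 TPM in CG1, and 16.6, 17.9 and 18.3 TPM in DW1, against 9.99, 8.87 and 10.3 TPM in CW1. Its log2 fold change was 1.22 ± 0.18 in G1 (adjusted p = 0.00218) and 0.96 ± 0.18 in W1 (adjusted p = 0.0401). DHAR2 (DN15882_c0_g1) had 239, 260 and 221 TPM in DG1, against 120, 165 and 113 TPM in CG1, and rose in G1 by 0.85 ± 0.24 (adjusted p = 0.0278, or 0.0547 without DG1 replicate 1). In W1 it had 167, 191 and 156 TPM in DW1, against 126, 98.2 and 115 TPM in CW1. These groups did not overlap, but the W1 value of 0.685 ± 0.24 did not pass the test (adjusted p = 0.139).

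The chloroplast form DHAR3 (DN14944_c0_g1) did not pass a test. It had 39.2 TPM in DG1 replicate 1 and 135 and 127 TPM in the other DG1 libraries, against 105, 180 and 170 TPM in CG1, so that the library with low levels of leaf photosynthesis transcripts was also the lowest for this gene. The log2 fold change was -0.40 ± 0.43 with that library and -0.02 ± 0.33 without it. The lambda member GSTL3 (DN19419_c1_g1) had 204, 243 and 261 TPM in DG1, against 112, 164 and 189 TPM in CG1. These groups did not overlap, but the value of 0.50 ± 0.31 did not pass (adjusted p = 0.265).

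The theta T1, microsomal and T3-like members showed little that passed a test. The most abundant theta gene, GSTT1 DN19955_c0_g1, had 41.0 to 47.6 TPM in DG1, 29.4 to 50.7 TPM in CG1, 35.9 to 39.6 TPM in DW1 and 36.0 to 44.9 TPM in CW1. Microsomal DN14751_c0_g2 had 191 TPM in DG1 replicate 1 and 99.1 and 94.6 TPM in the other DG1 libraries, against 70.0 to 127 TPM in CG1. Of the T3-like genes, DN20140_c0_g1 fell in G1, with 3.13, 9.06 and 6.41 TPM in DG1, against 30.0, 17.0 and 22.7 TPM in CG1 (-1.82 ± 0.54, adjusted p = 0.0333, or 0.0913 without DG1 replicate 1). DN15200_c0_g5 reached 104 TPM in DW1 replicate 3 and 91.7 TPM in CW1 replicate 1, and stayed between 1.01 and 5.50 TPM in the other 10 libraries. DN18560_c0_g4 had 0 counts in all DG1 libraries and 1, 0 and 1 in CG1, against 68, 0 and 10 in DW1 and 4, 117 and 59 in CW1.

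**Figure D3:**
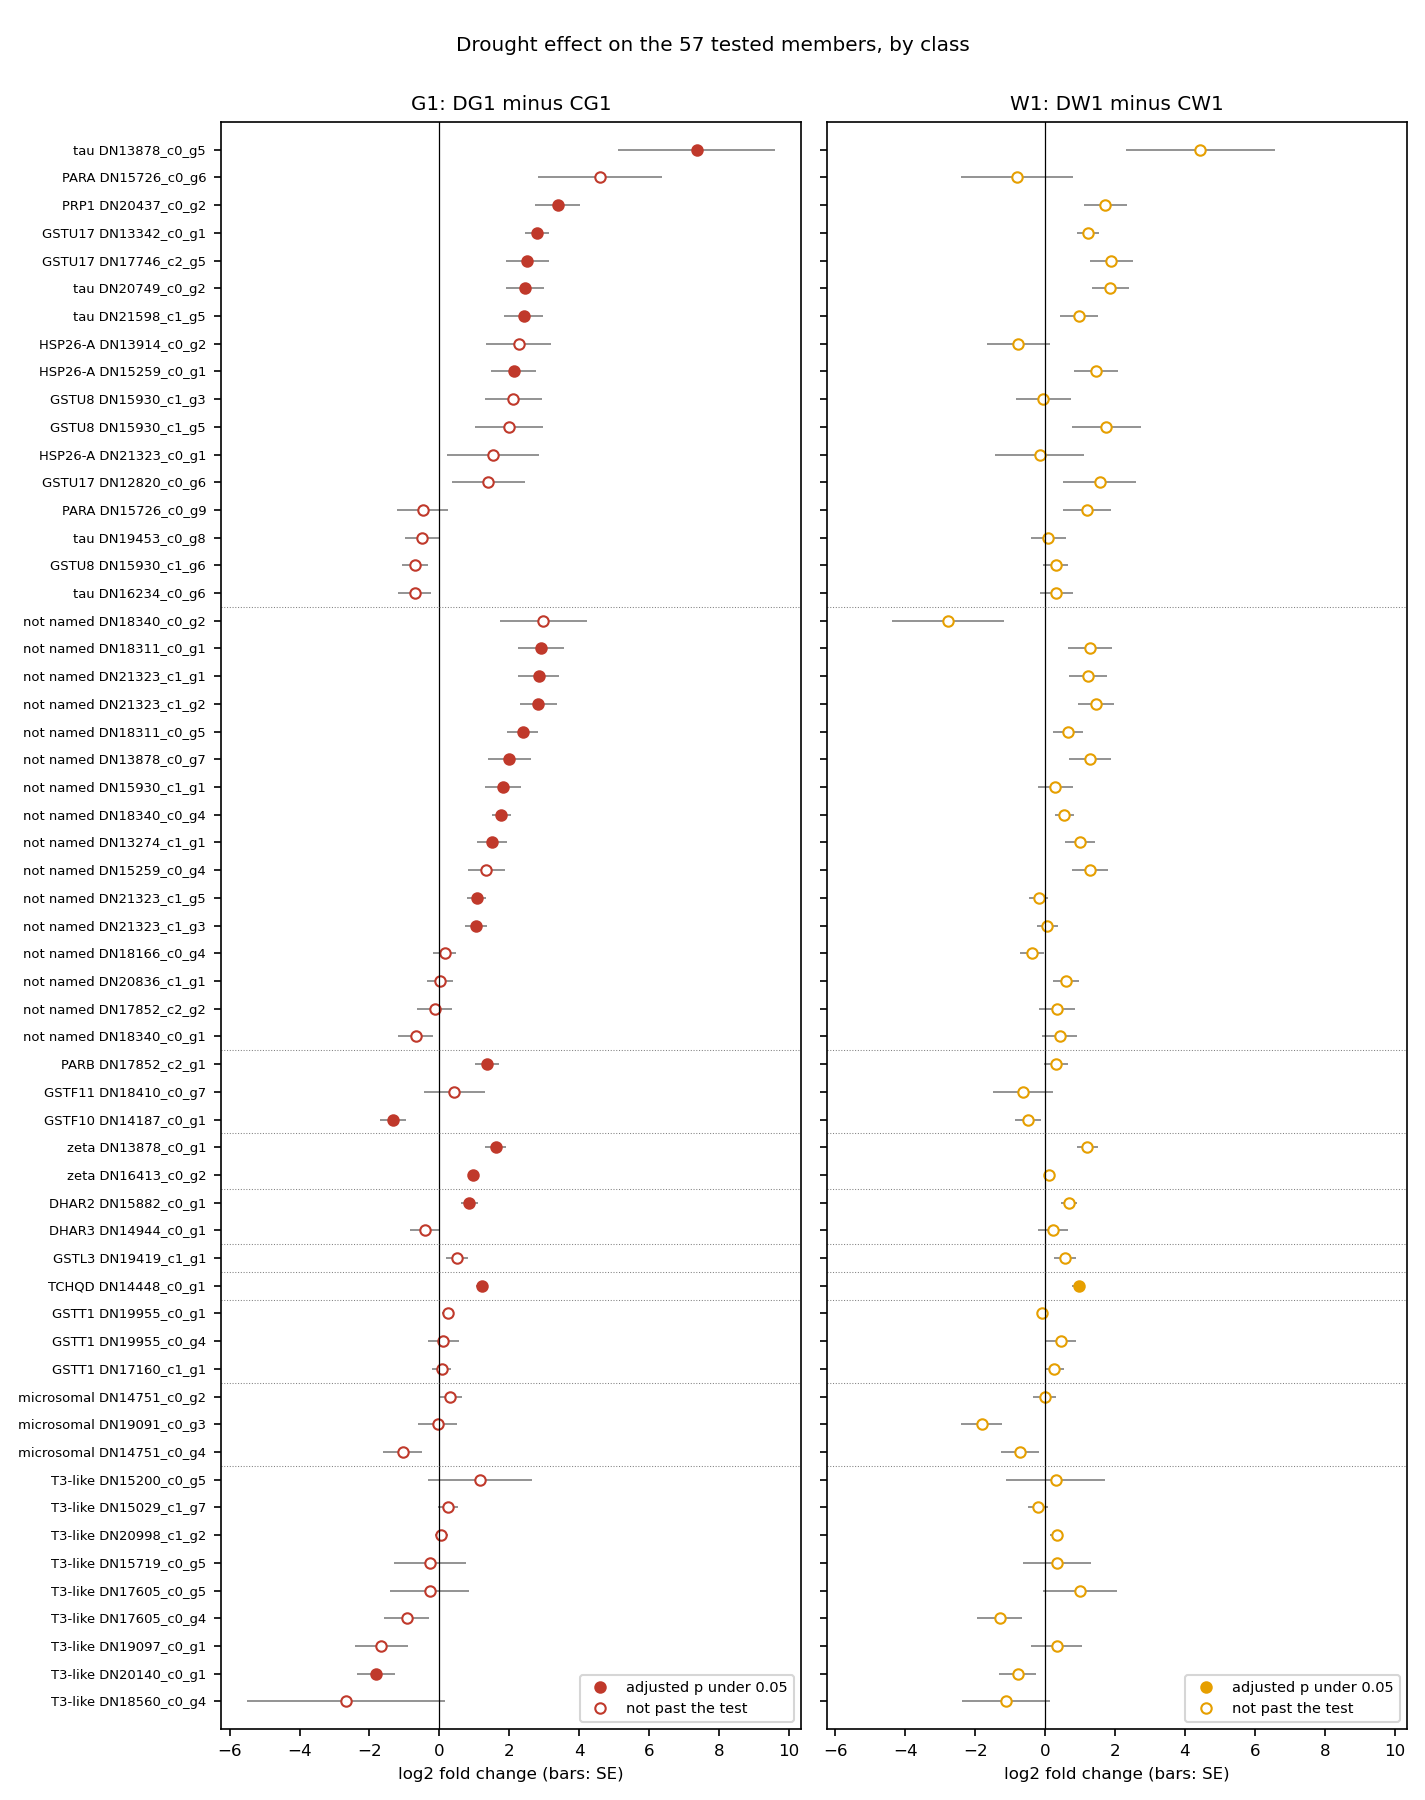
Log2 fold change with SE of the 57 tested members, by class from top to bottom, in G1 (left, DG1 minus CG1) and W1 (right, DW1 minus CW1), with filled points past the test. In G1 22 members rose and 2 fell, and in W1 TCHQD (DN14448_c0_g1) rose.

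DG1 replicate 1 was the highest of the DG1 libraries in 32 of 59 members (54.2%) and in 15 of 18 tau members (83.3%), against 43.3% of all genes tested. Its TPM was a median of 3.12 times the mean of DG1 replicates 2 and 3 over tau members, 1.68 times over members without a class and 1.35 times over all members, against 1.03 times over all genes tested. It was not the highest for either zeta member, either DHAR, the lambda member or TCHQD. The 9 members that rose with it but not without it were DN13878_c0_g5, DN15259_c0_g1 and DN17746_c2_g5 of the tau class, DN13274_c1_g1, DN13878_c0_g7, DN15930_c1_g1, DN21323_c1_g3 and DN21323_c1_g5 without a class, and DHAR2. Low rubisco and light-harvesting transcripts and more transcripts with vertebrate hits moved with this library, and their part in its GST levels was not tested.

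**Figure D4:**
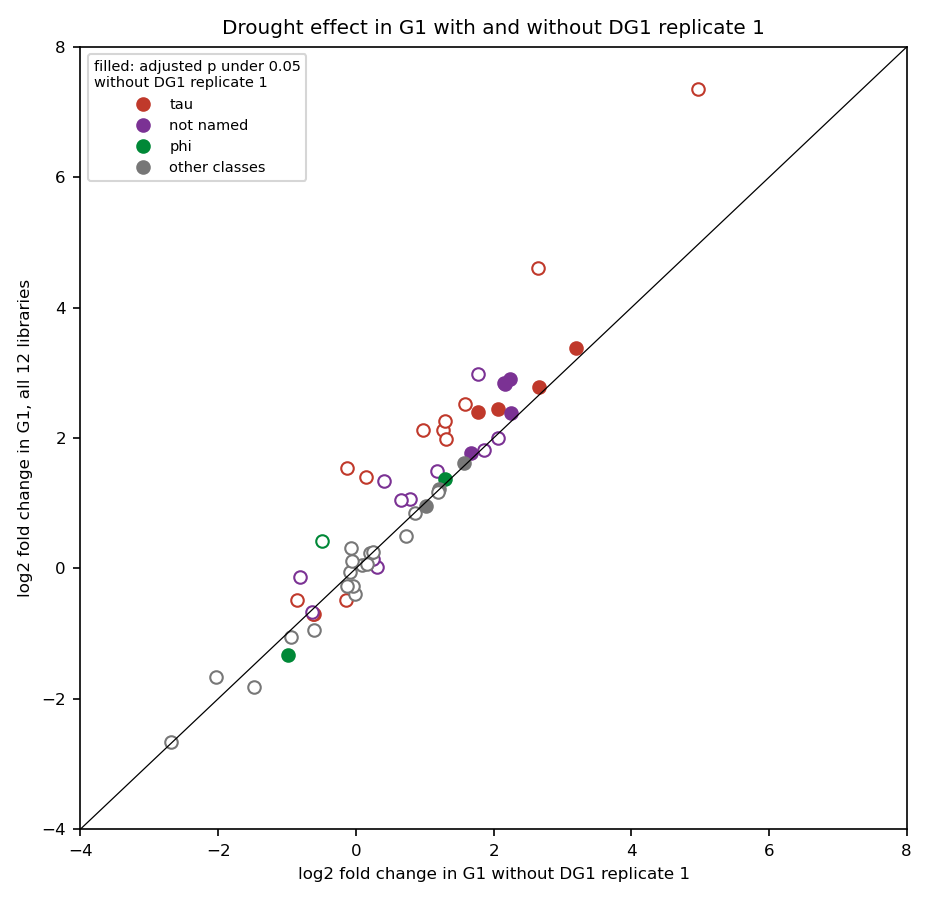
Log2 fold change of each tested member in G1 from all 12 libraries (y axis) against the fit without DG1 replicate 1 (x axis), coloured by class and filled where past the test without that library, with the line of equal values. Most tau members lie above the line, as HSP26-A (DN15259_c0_g1) with 2.13 against 0.97, whereas GSTU17 (DN13342_c0_g1) had 2.79 and 2.66.

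The comparison of DW1 with CW1 asked the same of W1. There 1 of 59 members rose, TCHQD, and 0 fell, against 0.771% and 0.799% of all genes tested. At an unadjusted p under 0.05 there were 13 members, near the 21.2% of all genes tested. DESeq2 called 6 members as higher and 1 as lower, against 4.49% and 5.85% of the genes it tested. The DESeq2 calls besides TCHQD were GSTU17 (DN13342_c0_g1), DN17746_c2_g5, PRP1 (DN20437_c0_g2), DN20749_c0_g2 and zeta DN13878_c0_g1 as higher and microsomal DN19091_c0_g3 as lower. In TPM, all 3 DW1 libraries lay above all 3 CW1 libraries in 11 of 59 members (18.6%), against 11.3% of the genes tested, and below them in 3, against 13.7%. The median log2 fold change of the members was 0.34, and that of all genes tested was 0.02. Without CW1 replicate 1, the library with the drought label, 0 members rose in W1 (0.00315% of all genes tested), as was also the case without most other single libraries, and without DW1 replicate 1 there were 3 (2.09% of all genes tested).

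Averaged over both cultivars, 21 of 59 members (35.6%) rose and 2 fell in drought, against 14.0% and 15.3% of all genes tested. DN13878_c0_g5, kept by the filter through droughted libraries only, is among the 21. This comparison shares its libraries with those above. DN15259_c0_g4, a member without a class, rose in the average alone (1.32 ± 0.37, adjusted p = 0.0221). It had 93.4, 32.0 and 23.4 TPM in DG1, against 18.9, 25.1 and 44.8 TPM in CG1, and 26.4, 64.7 and 27.0 TPM in DW1, against 17.3, 12.1 and 18.9 TPM in CW1. For DN21323_c1_g3 and DN21323_c1_g5 the averaged changes of 0.55 ± 0.21 and 0.44 ± 0.19 did not pass. Without DG1 replicate 1, 21 members rose in the average, against 11.0% of all genes tested.

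Whether the drought effect differed between the cultivars was tested by the interaction, that is the effect in G1 minus that in W1. No member passed it in edgeR, where 4 of all genes tested did (0.0137%). At an unadjusted p under 0.05 there were 10 members, against 9.49% of all genes tested, and DESeq2 called 1, zeta DN16413_c0_g2, against 1.21% of the genes it tested. That gene had an effect of 0.96 ± 0.15 in G1 and 0.11 ± 0.14 in W1, a difference of 0.85 ± 0.20 (edgeR adjusted p = 0.376). For GSTU17 (DN13342_c0_g1) the difference was 1.56 ± 0.45 (adjusted p = 0.386). The count of 22 in G1 and 1 in W1 is therefore not a tested difference between cultivars.

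Between the cultivars themselves, the droughted plants DG1 and DW1 differed in 0 members by edgeR, as in 0.00686% of all genes tested. There were 23 members at an unadjusted p under 0.05, against 16.0% of all genes tested, and DESeq2 called 9, against 3.88% of the genes it tested. Of these 9, DN18560_c0_g4 passed the minimum count in W1 libraries only, and DN18340_c0_g2 in DG1 but not in DW1 libraries. Calls of members kept in this way are no evidence of a difference. All 3 DG1 libraries lay above all 3 DW1 libraries in 19 of 59 members, against 7.14% of the genes tested, and below them in 2, against 10.8%. PARB (DN17852_c2_g1) was one of those above, with 233, 190 and 196 TPM in DG1, against 62.2, 141 and 69.7 TPM in DW1. The watered plants CG1 and CW1 also differed in 0 members by edgeR (0.442% of all genes tested), with 5 members at an unadjusted p under 0.05 and 2 called by DESeq2. These counts were no higher than the shares over all genes, 12.8% and 4.21%. All 3 CG1 libraries lay above all 3 CW1 libraries in 4 of 59 members, against 6.16% of the genes tested, and below them in 6, against 10.6%. The 2 DESeq2 calls were DN17852_c2_g2 and DN18560_c0_g4, the latter again kept through W1 libraries only. DN17852_c2_g2 had 89.3, 273 and 184 TPM in CG1, against 60.5, 50.1 and 72.3 TPM in CW1.

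The other genes of glutathione metabolism were taken from a list of 14 enzymes or transporters with 104 genes, of which 96 were tested. In G1, 17 of 104 rose (16.3%) and 4 fell (3.85%), against 11.5% and 12.3% of all genes tested, so that the rising share was not far from the background. In W1 1 rose and 1 fell, against 0.771% and 0.799%. The median log2 fold change in G1 was 0.31. None of the genes that make glutathione passed the test: GSH1 (DN14686_c0_g5), glutamate-cysteine ligase, had 53.0, 58.5 and 58.7 TPM in DG1, against 65.9, 65.4 and 62.7 TPM in CG1, and GSH2 (DN17822_c1_g2), glutathione synthetase, had 17.6, 21.9 and 21.1 TPM in DG1, against 20.7, 24.2 and 22.4 TPM in CG1. Neither did any of the 4 glutathione reductase genes tested (5 were listed) or of the 6 ascorbate peroxidase genes.

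The calls were spread over several enzymes of the list. Of 7 glutathione peroxidase genes 3 rose (42.9%), against 11.5% of all genes tested. Without DG1 replicate 1, 1 rose, against 6.72%. DN15980_c0_g3, annotated as a phospholipid hydroperoxide glutathione peroxidase, had 860 TPM in DG1 replicate 1 and 294 and 279 TPM in the other DG1 libraries, against 84.1, 116 and 90.1 TPM in CG1 (2.27 ± 0.44, adjusted p = 0.00582). Of 28 glutaredoxin genes 6 rose (21.4%) and 1 fell (3.57%) in G1, against 11.5% and 12.3% of all genes tested. Without DG1 replicate 1, 3 of them rose and 0 fell, against 6.72% and 8.29%. The glutaredoxin DN13534_c1_g1 was called in both cultivars, with 73.0, 74.9 and 87.7 TPM in DG1, against 18.5, 19.5 and 17.9 TPM in CG1 (2.08 ± 0.26, adjusted p = 0.00127), and 1.26 ± 0.26 in W1 (adjusted p = 0.0421). GRXS2 (DN14437_c1_g5) had 44.6, 36.8 and 61.3 TPM in DG1, against 7.76, 3.94 and 5.71 TPM in CG1 (3.06 ± 0.52, adjusted p = 0.00344).

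Of 7 lactoylglutathione lyase genes, which detoxify methylglyoxal with glutathione, 2 rose (28.6%), with and without DG1 replicate 1. Over all genes tested, 11.5% rose, or 6.72% without that library. DN18001_c0_g1 had 71.9, 75.7 and 86.9 TPM in DG1, against 26.0, 30.9 and 25.3 TPM in CG1 (1.47 ± 0.22, adjusted p = 0.00209). The monodehydroascorbate reductase AFRR (DN14022_c0_g1) had 1173 TPM in DG1 replicate 1 and 355 and 340 TPM in the other DG1 libraries, against 164, 183 and 119 TPM in CG1 (1.72 ± 0.36, adjusted p = 0.00797). Of 28 ABC transporters of the C family, some of which carry glutathione conjugates into the vacuole, 4 rose (14.3%) and 1 fell (3.57%), near the 11.5% of all genes that rose. ABCC14 (DN19390_c1_g1) had 358, 237 and 265 TPM in DG1, against 109, 127 and 109 TPM in CG1 (1.42 ± 0.33, adjusted p = 0.0125). ABCC13 (DN17868_c0_g4) fell in both cultivars, by 1.62 ± 0.27 in G1 (adjusted p = 0.00331) and by 1.39 ± 0.27 in W1 (adjusted p = 0.0403) on the log2 scale. Without DG1 replicate 1, 10 genes of the list rose and 2 fell in G1, against 6.72% and 8.29% of all genes tested. The list was set by words, so that a 3-hydroxyisobutyrate dehydrogenase hit, DN15424_c0_g6, counts among its 6-phosphogluconate dehydrogenases.

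**Figure D5:**
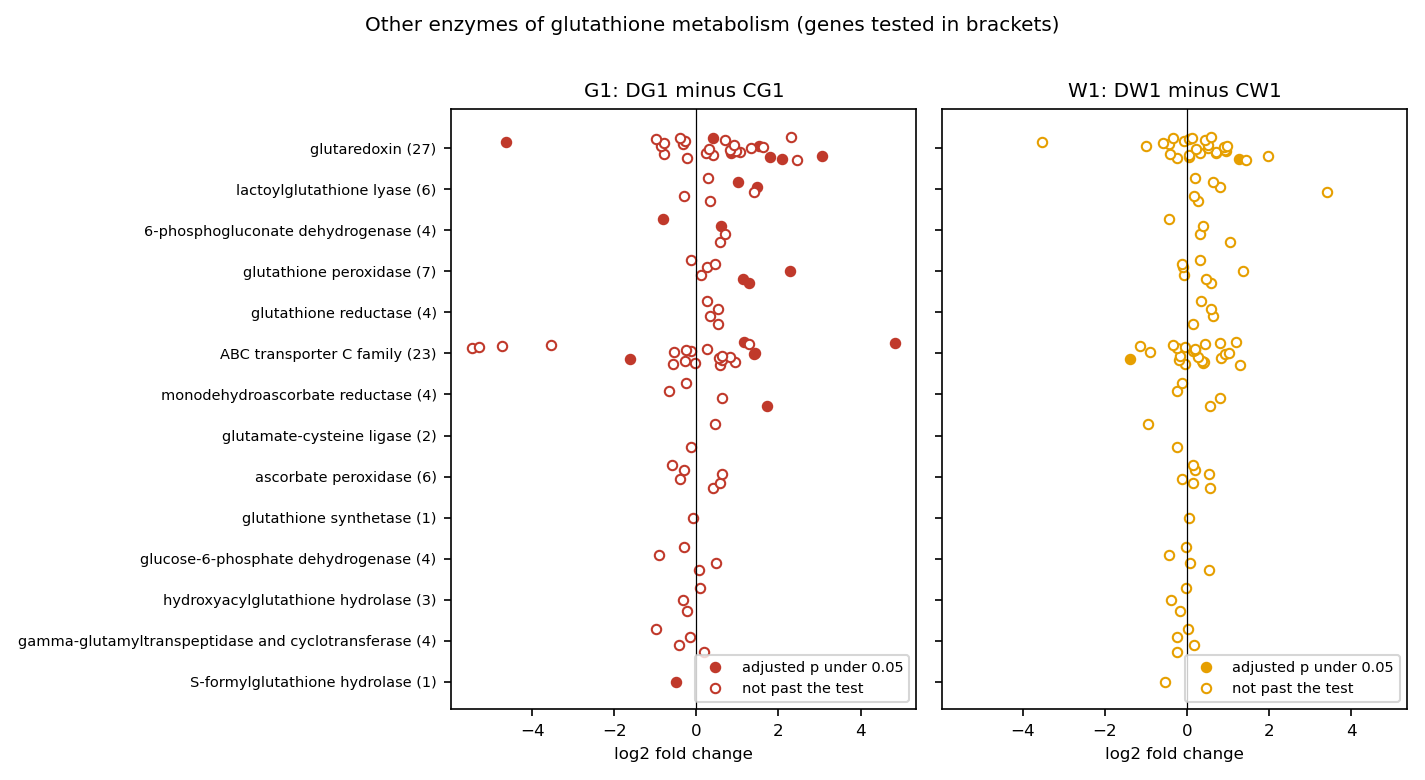
Log2 fold change of the 96 tested genes of the other glutathione enzymes (1 point per gene, enzymes ordered by their G1 median) in G1 (left) and W1 (right), with filled points past the test. In G1 17 genes rose and 4 fell, among them the 3 glutathione peroxidases and 6 glutaredoxins that rose.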

How the data were processed

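RNA of 12 leaf libraries was sequenced on an Illumina instrument. The authors assembled clean reads with Trinity, without a reference genome, and estimated expression with RSEM, so expected counts and TPM per gene were computed by the authors before deposit. The labels name a mouse genome build, which does not apply to this assembly. Expected counts are estimates and were rounded to whole numbers here. After filterByExpr (grouped by the 4 groups), 29,168 genes entered 1 model of edgeR 4.0.16 under R 4.3.3, with a mean per group, TMM factors, 8 residual degrees of freedom and the quasi-likelihood F test. Adjusted p-values are Benjamini-Hochberg values over all genes tested, and standard errors were derived as log2 fold change over the root of F. TPM values served for levels, for the counts of groups that did not overlap, and for the limma-trend tests among the alternatives below. Gene counts carry no strand information here, and overlapping genes cannot be told apart.

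The members, the pathway list and the tests were chosen with earlier results of these data known. Named members are those called in a comparison, those with qRT-PCR primers, the 3 most abundant of each class, and up to 12 tested members of each class other than tau and phi. From the pathway list, up to 3 genes per enzyme and direction could be named, and further genes outside these rules were named after their values were seen. Alternatives were DESeq2 1.42.0, RLE size factors, no filter on low counts, limma-trend 3.58.1 on log2(TPM + 1) and log2(TPM + 0.1) above a mean of 1 TPM, only the libraries compared, a replicate block, a 4-fold minimum, and leaving out each library in turn. Leaving out DG1 replicate 1 and CW1 replicate 1 together was added after seeing the data. Raw reads, qRT-PCR values and physiological measurements were not analysed here.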

Additional observations from a re-analysis of the deposited data

How the results depend on the processing

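With all 12 libraries, 22 members rose in G1. The count was 25 by DESeq2 (10.2% of all genes rose in that setting), 19 without the filter on low counts (3.95%), 18 with only the groups compared (9.49%), and 12 with a 4-fold minimum (4.15%). Leaving out 1 library gave 11 to 22, the lowest without CG1 replicate 3 and 13 without DG1 replicate 1. Without DG1 replicate 1 and CW1 replicate 1 together, chosen after seeing the data, 15 rose (6.31% of all genes) and 1 fell, against 2219 of 30,969 genes. Of 2 members that fell in G1, 1 was left with only the groups compared, where 2649 of 25,497 genes fell. With a 4-fold minimum 0 were left, against 1404 of 29,168 genes. When 1 library was left out, 0 to 2 were left, while 2061 to 3931 genes fell (0 members without DG1 replicate 3, CG1 replicate 2 or CG1 replicate 3). For W1, the 1 rising member became 6 by DESeq2 and 0 without the filter, by limma with either pseudocount, with only the groups compared, with a 4-fold minimum and without both libraries, and 0 to 3 when 1 library was left out. DESeq2 called 1 member lower in W1, where edgeR called 0 (0 to 0 with 1 library left out). Averaged over cultivars, a 4-fold minimum gave 8 rising (3.21% of all genes) and 0 falling members in place of 21 and 2. Leaving out 1 library gave 18 to 22 rising members, while 2698 to 3922 of 31,145 to 31,786 genes rose. It gave 0 to 4 falling members, while 3233 to 4897 genes fell. Leaving out both gave 18 and 1, against 2945 and 3475 of 30,969 genes. DESeq2 called 1 member for the interaction, 9 between DG1 and DW1, and 2 between CG1 and CW1, against 0 each by edgeR, which gave 0 to 1 between CG1 and CW1 with 1 library left out. The causes were not tested, apart from the fewer samples or stricter threshold of an alternative itself.

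With the replicate number as a block, 19 members rose (9.45% of all genes) and 2 fell in G1, where 3375 of 29,168 genes fell. In W1 2 members rose, against 228 of these genes, and 21 rose on average, against 3612. Deviations of libraries with the same number correlated between -0.177 and 0.27, and not every library correlated best with its own number. Whether libraries of the same number share a batch was not tested. Of the values of single named members across comparisons and alternatives, 0 reversed, 89 lost and 14 gained the call. Another 16 moved by more than their spread, against 1747 that kept both. Values without a call in the main fit could not lose one and count among these, so 89 is no share of the calls. Of the 22 rising and 2 falling members in G1, 11 kept the call in every alternative but the 4-fold minimum. Depth limits the values of 7 members, which passed the minimum count in fewer than 6 libraries.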
